A study of Mus musculus with 12 samples.

Results

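Mitochondrial ribosomal protein genes were followed in mouse acute myeloid leukaemia cells through chemotherapy. The genes were every row of the deposited tables named Mrpl or Mrps, then digits and at most 1 letter, with a mean of at least 1 FPKM over the 12 libraries. FPKM divides a gene's sequenced fragments by the length of its transcript and by the total mapped in that library. Levels are thus relative to each library's total, and comparisons between libraries depend on that scaling. The rule found 77 genes among 24883 rows, 48 of them named for the large subunit (Mrpl) and 29 for the small subunit (Mrps). All 77 genes whose names matched also met the minimum level. The lowest means were 9.85 FPKM for Mrpl1 and 10.1 FPKM for Mrps31, and no gene with such a name lay under the minimum.

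Each library held RNA of GFP+ leukaemia cells that had been sorted out of 1 mouse's bone marrow, and all 12 mice carried MLL-AF9-driven leukaemia, labelled as MLL-AF9 transgenic. MLL-AF9 is a fusion oncoprotein of human acute leukaemia. The relapse group (n = 4) was sampled 10 days after doxorubicin and cytarabine, a topoisomerase poison and a nucleoside analogue, had been completed. The iCT group (induction chemotherapy, n = 3) was sampled 3 days after the same 2 drugs, and the vehicle group (n = 5) received vehicle. Strain, age, sorting purity and whether the mice shared 1 leukaemia clone are not stated in the labels. Nor is the sampling day of the vehicle mice, so the comparisons with vehicle cannot be taken as matched in time. All 11 leukaemia markers examined, among them Ptprc, Kit, Cd34, Hoxa9 and Meis1, were detected in every group. Of these markers limma called 1 higher and 3 lower (Kit, Cd34 and Cebpa) in iCT than in vehicle cells. Kit read 26.9 to 39.4 FPKM in relapse, 5.60 to 8.72 FPKM in iCT and 24.3 to 27.5 FPKM in vehicle cells.

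The mitochondrial ribosome sits in the mitochondrial matrix and translates the few proteins encoded in mitochondrial DNA, all of them subunits of the respiratory chain and ATP synthase. Its protein components are encoded in the nucleus, made in the cytosol and imported, while its ribosomal RNAs come from mitochondrial DNA. Some components descend from bacterial ribosomal proteins and others occur only in mitochondria. Names do not always match the structure: Mrps18a and Mrps30 are components of the large subunit, and Mrps36 is now known as a part of the oxoglutarate dehydrogenase complex. These 3 genes were kept with the small subunit, where the name rule places them. Acute myeloid leukaemia cells are known to depend on mitochondrial translation.

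Sequences are shown at the starts of the 4 genes that passed the test at 3 days, 3 of them higher and 1 lower than in vehicle cells. Which genes passed depended on the libraries and settings, as given below. RefSeq promoter windows (GRCm38.p6) were matched by symbol for 68 of the 77 genes. Each printed window holds 150 bases on the plus strand, from 100 bases before the annotated start, and positions count that start as 1, with the base before it as -1. Capitals mark matches, on either strand, to the NRF1 core, CCGGAAG (ETS factors) or AANATGGCG (YY1), factors known for acting at promoters of nuclear genes for mitochondrial proteins.
Mrpl33, chr5:31613851-31614000: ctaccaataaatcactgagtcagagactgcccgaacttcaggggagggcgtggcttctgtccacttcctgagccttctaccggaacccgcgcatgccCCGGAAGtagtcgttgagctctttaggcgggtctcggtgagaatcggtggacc
Mrpl9, chr3:94443236-94443385: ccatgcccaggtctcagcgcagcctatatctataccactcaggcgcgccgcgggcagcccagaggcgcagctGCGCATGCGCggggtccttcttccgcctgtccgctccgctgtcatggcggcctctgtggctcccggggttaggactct
Mrps26, chr2:130563657-130563806: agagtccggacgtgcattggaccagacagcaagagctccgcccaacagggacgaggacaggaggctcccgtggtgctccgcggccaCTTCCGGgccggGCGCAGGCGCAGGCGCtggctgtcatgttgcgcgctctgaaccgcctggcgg
Mrps27, chr13:99344686-99344835: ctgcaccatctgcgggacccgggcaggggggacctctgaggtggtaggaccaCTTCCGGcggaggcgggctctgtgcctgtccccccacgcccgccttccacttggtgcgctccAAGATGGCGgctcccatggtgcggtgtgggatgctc

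The ETS letters began at position -3 in Mrpl33, on the plus strand, and at -14 in Mrps26 and -48 in Mrps27, on the minus strand. NRF1 letters began at -28 in Mrpl9 and at -2 and 5 in Mrps26, where the 2 matches overlap. YY1 letters began at position 15 in Mrps27. Matches to different motifs did not overlap in these 4 windows.

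Over whole windows of 300 bases, 17.6% of 74 promoters of the 77 genes held the NRF1 letters, against 4.6% of all 32851 mouse promoters and 10.7% of those of tested genes. ETS letters stood in 33.8% of the member promoters, 8.86% of all promoters and 18.9% of those of tested genes. For YY1 the shares were 13.5%, 2.38% and 5.52%. By count, all 3 motifs were more frequent at the member genes than at tested genes as a whole. A Sp1 box (GGGCGG) stood in 52.7% of member promoters, 35.7% of all promoters and 62.1% of those of tested genes. The TATA letters (TATAAA) were found in 6.76% of member promoters, 13.6% of all and 6.81% of those of tested genes. The shares for the 47 large and 27 small subunit promoters were 21.3% and 11.1% for NRF1, and 29.8% and 40.7% for ETS. These are counts of letters and say nothing of binding.

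A protein-coding start on the other strand lay within 1000 bases for 18 of the 77 genes (23.4%), against 11.5% of tested protein-coding genes. Mrps27 faces Ptcd2, Mrps12 faces Sars2, a mitochondrial seryl-tRNA synthetase, and Mrpl49 faces Fau, which encodes a cytosolic ribosomal protein as a fusion.

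Depth differed between libraries. The confidence intervals in the tables implied 361914 fragments for iCT mouse 1, against 1225254 to 8359793 for the other 11. For the median member this meant 18.0 implied fragments in iCT mouse 1, against 65.4 to 558.4 elsewhere, and 16 members had under 10 there, against 0 elsewhere. The 95% interval of the median member reached 47.2% of its value to either side in iCT mouse 1, and 8.46% to 24.7% in the others. Several of the iCT changes below are therefore also given without it, but not all.

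Markers of other marrow cells moved with iCT. Of 9 tested macrophage markers 6 were higher and 1 was lower in iCT than in vehicle cells, with summed levels of 115 to 138 FPKM in relapse, 163 to 341 FPKM in iCT and 157 to 210 FPKM in vehicle. Of 6 tested osteoclast markers 5 were higher, with sums of 19.1 to 82.5 FPKM in relapse, 146 to 666 FPKM in iCT and 14.2 to 30.0 FPKM in vehicle. Calcr, Dcstamp and Oscar were listed at 0 in every vehicle library and Marco in every relapse and vehicle library. Of 10 tested neutrophil markers 3 were higher, and of 8 tested erythroid markers 4 were lower, with Slc4a1 listed at 0 in every iCT library. Their part in the results below was not tested, and in bulk RNA fewer cells of a type and less RNA per cell cannot be told apart.

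The levels of the 77 genes spanned 42.6-fold. Mrpl33, a small large-subunit protein with a bacterial counterpart, had the highest mean at 419.5 FPKM. It was followed by Mrps21, at 294.9 FPKM, and Mrps18c, at 190.7 FPKM, both small-subunit proteins with bacterial counterparts. Mrps21 exceeded Mrps18c in 12 of 12 libraries, while Mrps18c exceeded the fourth gene, Mrpl23, in 4 of 12, so those neighbours were not ordered. Mrpl33 exceeded Mrps21 in all 4 relapse and all 5 vehicle libraries but in 1 of 3 iCT libraries.

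At the low end stood Mrps25 (10.6 FPKM), Mrps31 (10.1 FPKM) and Mrpl1 (9.85 FPKM). The first 2 are small-subunit proteins found only in mitochondria, and the last belongs to the stalk beside the tRNA exit. Mrps25 exceeded Mrps31 in 9 of 12 libraries, and Mrps31 exceeded Mrpl1 in 5 of 12. In vehicle cells Mrpl1 averaged 12.2 ± 2.43 FPKM and Mrps31 10.2 ± 1.68 FPKM (SD, n = 5).

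The median of the 77 means was 49.3 FPKM, against 11.6 FPKM for all 11019 genes tested, and 73 of the 77 lay above 11.6 FPKM. A mean of at least 100 FPKM was reached by 12 genes, 9 of the large and 3 of the small subunit, and 10 genes had a mean under 20 FPKM. The 10 most abundant members held 38.1% of the FPKM of all 77. Members' longest annotated transcripts had a median of 1316 bases, against 2909 bases for tested genes with a length. Across the 77 genes Spearman's rho between this length and mean FPKM was -0.514, a description, since genes are not independent replicates. This length need not be the one used for FPKM, and for Mrps26 (4278 bases) it exceeds the span of the gene's locus.

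Of the 3 homologues that share the name Mrps18, Mrps18c stood apart in level. Mrps18c had 171 ± 20.9 FPKM in relapse (n = 4), 214 ± 88.6 FPKM in iCT (n = 3) and 192 ± 7.12 FPKM in vehicle cells (SD, n = 5). It lay above Mrps18b and Mrps18a in 12 of 12 libraries. Mrps18b averaged 56.6 ± 5.95 FPKM in relapse, 80.3 ± 14.0 FPKM in iCT and 57.6 ± 8.63 FPKM in vehicle cells. Mrps18a, the homologue built into the large subunit, averaged 61.7 ± 8.55, 61.8 ± 18.2 and 60.7 ± 8.29 FPKM in the same groups. Mrps18b exceeded Mrps18a in 4 of 12 libraries, so these 2 were not ordered.

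**Figure D1:**
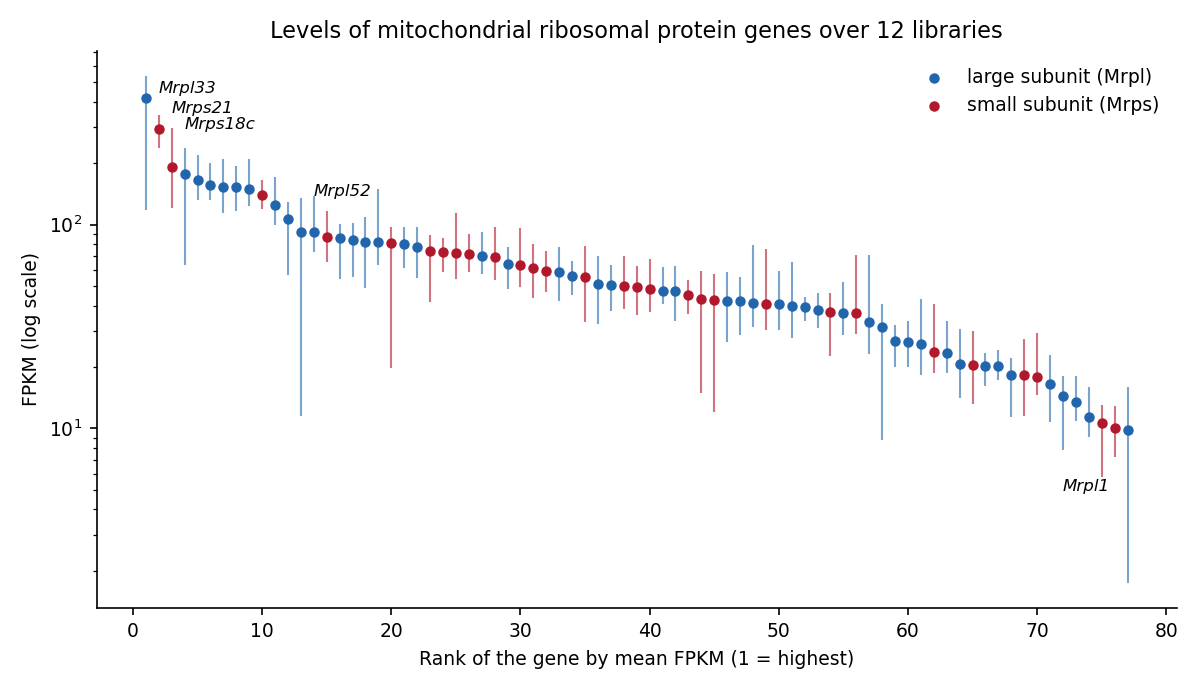
FPKM (log axis) of the 77 mitochondrial ribosomal protein genes by rank of their mean over 12 libraries; points are means, lines run over the lowest and highest library, blue marks large and red small subunit names. Mrpl33 stands highest at 419.5 FPKM and Mrpl1 lowest at 9.85 FPKM, and both subunits are spread over the whole range.

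The order of the genes was alike in nearly all libraries. Spearman's rho over the 77 genes was 0.928 to 0.986 between pairs of the 11 deeper libraries, and 0.74 to 0.756 between iCT mouse 1 and the others. Within groups the median coefficient of variation of a member was 10.4% in relapse, 25.8% in iCT and 11.4% in vehicle cells. Without iCT mouse 1 it was 17.1% in iCT. That mouse held the lowest of the 12 values for 28 members and the highest for 19, while iCT mouse 2 held the highest for 31. How often these mice held the extremes over all tested genes was not counted.

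The members moved together only in part. Over the 11 deeper libraries the median correlation between pairs of members, on the log2 scale, was 0.293, against 0.584 for the cytosolic ribosomal protein genes. The 2 sets differ in level, with medians of 50.3 and 3196 FPKM in vehicle cells, and the part of counting error was not tested. Mrpl20, Mrps10 and Mrpl54 followed the median of the other members most closely over 12 libraries, with Pearson's r of 0.854, 0.835 and 0.824. Mrps30, Mrpl21 and Mrpl4 followed it least, with r of -0.136, -0.124 and -0.011. Without iCT mouse 1 the values were 0.866, 0.857 and 0.828 for the first 3 genes and 0.144, 0.13 and -0.085 for the others. These correlations share libraries and FPKM scaling and are given as descriptions.

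**Figure D2:**
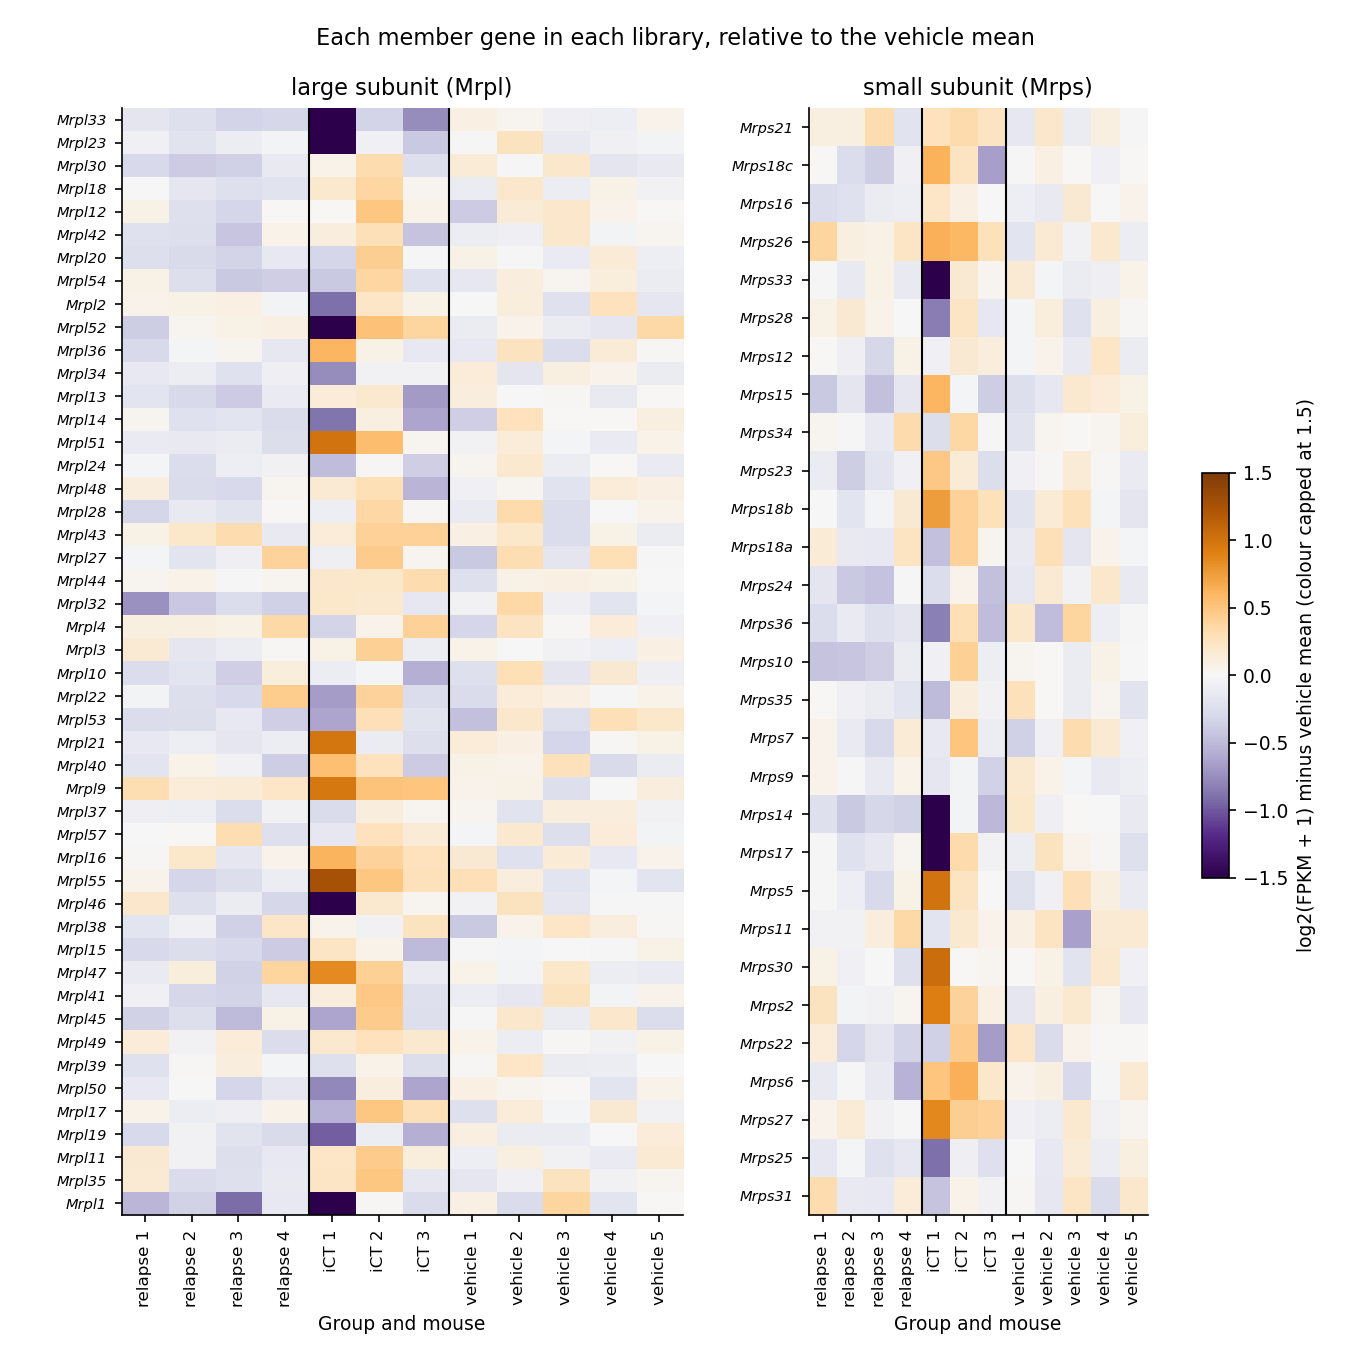
Each member gene (rows, ordered by mean FPKM within its subunit) in each library (columns); colour gives log2(FPKM + 1) minus the vehicle mean, orange above and purple below, capped at 1.5. The strongest colours stand in iCT mouse 1, in both directions, and iCT mouse 2 is orange for most genes, with 44 of 77 above every vehicle mouse. The like share of all tested genes was not counted.

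The share of the transcriptome taken by these genes overlapped between the groups. The 77 genes together held 0.613% ± 0.0143 of all FPKM in relapse (SD, n = 4), 0.649% ± 0.0447 in iCT (n = 3) and 0.636% ± 0.0112 in vehicle cells (n = 5). The median member stood at 49.4, 43.9, 45.8 and 52.4 FPKM in relapse mice 1 to 4, at 48.9, 61.2 and 46.8 FPKM in iCT mice 1 to 3, and at 48.2, 52.6, 48.5, 53.1 and 49.2 FPKM in vehicle mice 1 to 5. One iCT mouse lay above every other library, and the groups overlapped.

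By the level of the median member, iCT mice 2 and 3, the 2 deep iCT libraries, stood on opposite sides of the vehicle mice. They read 61.2 and 46.8 FPKM, against 48.2 to 53.1 FPKM in vehicle mice. By share of all FPKM, mouse 3 lay within the vehicle range, at 0.625% against 0.622% to 0.647%. In mouse 2, 72 of 77 members were higher than in mouse 3, which holds for 44 of 48 large and 28 of 29 small subunit genes. Over all tested genes, 5075 of 11019 were higher in mouse 2. Cytosolic ribosomal protein genes were higher in mouse 2 for 75 of 81 and nuclear respiratory chain genes for 69 of 76. Of the 77 members, 44 exceeded every vehicle mouse in iCT mouse 2, against 13 in iCT mouse 3. Under every vehicle mouse lay 27 in iCT mouse 3, against 1 in iCT mouse 2. The like shares of all tested genes were not counted, so these counts have no baseline.

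Large and small subunit genes were compared by their medians, with no test of the difference. The median large-subunit gene stood at 44.4 ± 3.83 FPKM in relapse, 51.2 ± 5.70 FPKM in iCT and 48.5 ± 4.02 FPKM in vehicle cells (SD over mice). The median small-subunit gene stood at 49.5 ± 2.18, 52.4 ± 13.3 and 53.1 ± 2.01 FPKM in the same groups. Measured as the median log2 difference from the vehicle mean, large minus small was -0.07, -0.05, -0.06 and -0.08 in relapse mice 1 to 4, and 0.12, 0.04 and -0.09 in iCT mice 1 to 3. In vehicle mice 1 to 5 it was 0.00, 0.06, -0.05, -0.04 and 0.02. All 4 relapse values lay under 0 and overlapped the vehicle values only at -0.05.

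**Figure D3:**
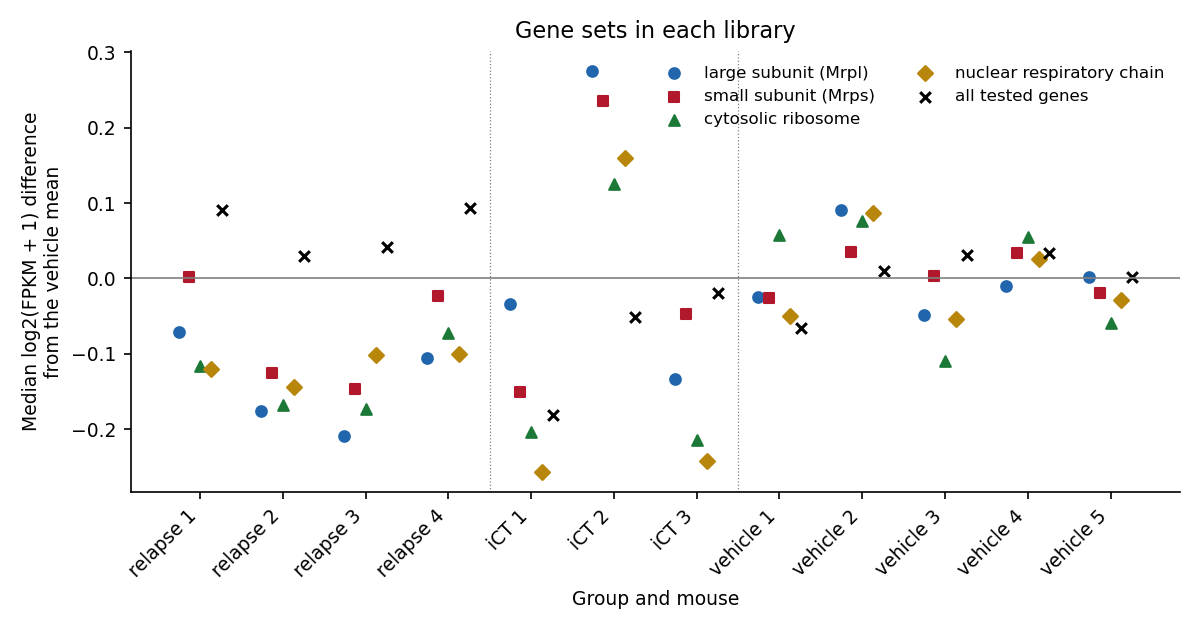
Median difference of log2(FPKM + 1) from the vehicle mean (y axis) in each library (x axis) for large and small subunit genes, cytosolic ribosomal protein genes, nuclear respiratory chain genes and all tested genes. The median of all 77 members is 0.26 in iCT mouse 2 and -0.06 in iCT mouse 3, and in the relapse mice the sets lie under the median of all tested genes.

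At 3 days after chemotherapy, few of the 77 genes were called as changed from vehicle, and in both directions. In a linear model (limma) of log2(FPKM + 1) over all 12 libraries, with Benjamini-Hochberg adjustment over 11019 genes and a threshold of 0.05, 3 members rose (Mrpl9, Mrps27 and Mrps26) and 1 fell (Mrpl33). By the same rule 9.62% of all tested genes changed, 3.31% upward and 6.31% downward. The median change of the members was 0.05 on the log2 scale, against -0.08 for all tested genes, with 43 members above 0. Unadjusted p was under 0.05 for 20 of 77 members and 3282 of 11019 genes.

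Mrpl9, a large-subunit protein at the base of the stalk beside the exit site, with a bacterial counterpart, had 65.3, 47.45 and 46.9 FPKM in iCT mice 1 to 3, against 34.3, 34.99, 27.8, 33.0 and 35.7 FPKM in vehicle mice. Every iCT mouse lay above every vehicle mouse. The log2 change was 0.65 (SE 0.13, limma adjusted p = 0.00922), and without iCT mouse 1 it was 0.50 (adjusted p = 0.0203).

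Mrps27, a pentatricopeptide repeat protein of the small subunit, had 29.2, 21.3 and 20.9 FPKM in iCT cells, against 14.8, 14.5, 17.75, 15 and 15.98 FPKM in vehicle cells. The groups did not overlap. Its log2 change was 0.57 (SE 0.13, limma adjusted p = 0.0202), and 0.42 (adjusted p = 0.0453) without iCT mouse 1.

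Mrps26, a small-subunit protein found only in mitochondria, had 117, 113.5 and 90.9 FPKM in iCT cells, against 65.1, 83.4, 72.1, 85.2 and 69.8 FPKM in vehicle cells. Here too the groups did not overlap, with the nearest mice 90.9 and 85.2 FPKM. The log2 change was 0.51 (SE 0.12, limma adjusted p = 0.025). It was 0.44 and no longer passed (adjusted p = 0.076) without iCT mouse 1, nor did it pass without vehicle mouse 3 (adjusted p = 0.0537) or vehicle mouse 5 (adjusted p = 0.0581).

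Mrpl33, the most abundant member, had 118.4, 400.5 and 298.8 FPKM in iCT cells, against 535.2, 517.4, 478.5, 473.5 and 524.5 FPKM in vehicle cells. All 3 iCT mice were lower than all vehicle mice. Its log2 change was -1.06 (SE 0.28, limma adjusted p = 0.0329), the only member change of at least 2-fold. In iCT mouse 1 the value rested on 13 implied fragments, and without that mouse the change was -0.545 (adjusted p = 0.0156). It did not pass with any 1 of vehicle mice 1 to 5 left out (adjusted p of 0.0538 to 0.0668). The gene overlaps Rbks on the opposite strand, which averaged 17.9 FPKM in relapse, 9.80 FPKM in iCT and 14.5 FPKM in vehicle cells, and strand is not given for these libraries.

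The next largest changes did not pass. Mrpl55 of the large subunit had 71.0, 41.3 and 35.4 FPKM in iCT cells, against 35.7, 31.6, 25.4, 28.6 and 25.35 FPKM in vehicle cells, with a log2 change of 0.67 (SE 0.20, limma adjusted p = 0.0512). Mrpl51, a mitochondria-specific protein of the same subunit, had a log2 change of 0.52 and an adjusted p of 0.0618. Without iCT mouse 1 these changes were 0.38 for Mrpl55 (adjusted p = 0.156) and 0.29 for Mrpl51 (adjusted p = 0.212). On the other side Mrpl1 had -0.83 (adjusted p = 0.187), Mrps14 -0.75 (adjusted p = 0.0896) and Mrpl23 -0.70 (adjusted p = 0.0956). In these 3 genes iCT mouse 1 was the lowest library, and without it the changes were -0.13, -0.28 and -0.24.

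The genes best known from structure or disease did not pass. Log2 changes were 0.19 for Mrpl12, the stalk protein that also binds the mitochondrial RNA polymerase, 0.26 for Mrpl11 of the stalk base and 0.13 for Mrpl3 beside the peptidyl transferase centre. Mrpl44, whose human variants cause cardiomyopathy, had 0.24 (SE 0.09, limma adjusted p = 0.109). Its values were 61.0, 61.2 and 66.5 FPKM in iCT cells, against 45.2, 55.9, 56.2, 55.95 and 52.7 FPKM in vehicle cells, without overlap. In the small subunit the changes were 0.07 for Mrps12 of the decoding centre, 0.08 for Mrps7, 0.10 for Mrps16, -0.19 for Mrps22, 0.03 for Mrps34 and -0.34 for Mrps36. Human variants of Mrps7, Mrps16, Mrps22 and Mrps34 cause respiratory chain deficiency. Mrps18b had 0.47 (limma adjusted p = 0.0553), Mrps18c 0.06 and Mrps18a -0.01.

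Groups that did not overlap in FPKM were counted as well. In 8 members every iCT mouse was above every vehicle mouse (Mrpl9, Mrpl16, Mrpl44, Mrpl49, Mrps6, Mrps21, Mrps26 and Mrps27), and in Mrpl33 every iCT mouse was below. Among all tested genes 5.49% were separated upward and 10.6% downward. By subunit, limma called 1 higher and 1 lower of 48 large-subunit genes and 2 higher and 0 lower of 29 small-subunit genes, with median log2 changes of 0.05 and 0.06. For 68 members (88.3%) the 95% interval of the change lay within 2-fold either way, against 70.2% of all tested genes.

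These counts rested on single mice. Without iCT mouse 2 the same test called 17 members, 5 higher and 12 lower (24.8% of all genes), and the median change was -0.09. Without iCT mouse 3 it called 9, 8 higher and 1 lower (11.1%), and without vehicle mouse 5 it called 2 (5.18%). In a limma fit of iCT and vehicle libraries alone only Mrpl9 passed (adjusted p = 0.0459), where 3.27% of all genes did. Scaling by median of ratios called 7 higher and 1 lower (10.1% of all genes), and removal of length and GC trends 6 higher and 1 lower (11.5%).

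**Figure D4:**
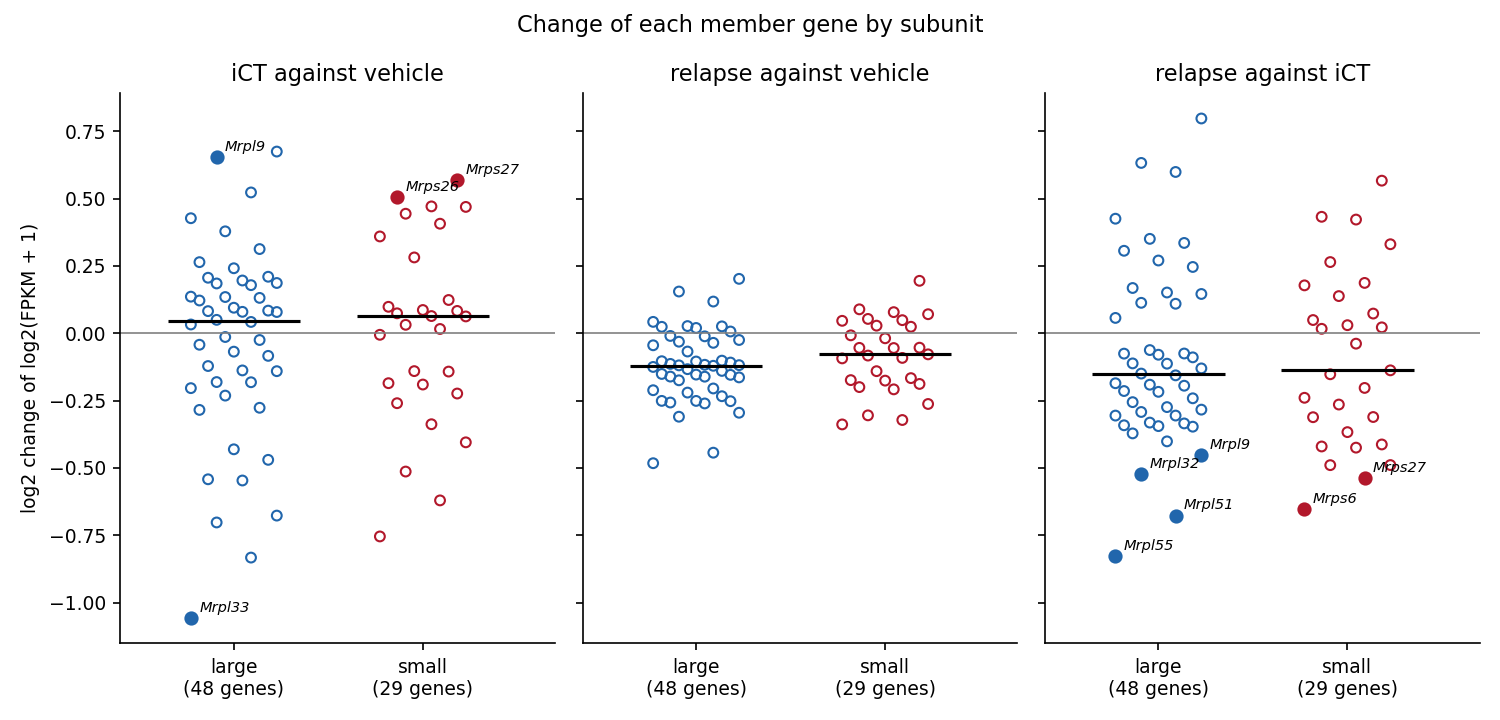
Log2 change of each member gene (y axis) in the 3 comparisons, by subunit name (x axis); filled and named points passed limma at an adjusted p under 0.05, open points did not, and bars mark medians. Of 77 genes, 4 passed in iCT against vehicle, 0 in relapse against vehicle and 6 in relapse against iCT.

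At 10 days after chemotherapy no member was called against vehicle. By limma over all 12 libraries 0 of 77 passed, and 0% of the 11019 genes tested. At an unadjusted p under 0.05 there were 4 members (Mrpl30, Mrpl32, Mrps10 and Mrpl15) and 1604 genes. No member moved beyond 0.5 on the log2 scale, and for 75 of 77 the 95% interval lay within 2-fold, against 85.6% of all genes. The estimates leaned downward: 59 of 77 (76.6%) were under 0, with a median of -0.11, while 59.4% of all tested genes were above 0, with a median of 0.06. The median was -0.12 for large-subunit genes, 39 of 48 under 0, and -0.08 for small-subunit genes, 20 of 29 under 0. The members' median depended on processing, and so did that of all genes. With length and GC trends removed it was -0.05, against 0.0681 for all genes. With median-of-ratios scaling it was -0.19, against -0.0048 for all genes. Members share libraries and scaling, so these counts carry no test.

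The lowest estimates belonged to Mrpl1 (-0.48), Mrpl32 (-0.44), Mrps10 (-0.34) and Mrps14 (-0.32). Mrpl32, a large-subunit protein matured by the m-AAA protease, had 32.7, 41.1, 45.8 and 42.7 FPKM in relapse mice, against 53.1, 70.15, 52.3, 48.2 and 54.15 FPKM in vehicle mice. The groups did not overlap, and the limma adjusted p was 0.182. Mrps10, a small-subunit protein with a bacterial counterpart, had 38.5, 38.6, 40.2 and 48.3 FPKM in relapse mice, against 53.7, 52.6, 48.3, 55.3 and 52.3 FPKM in vehicle mice, touching at 48.3 FPKM (adjusted p = 0.212).

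Mrpl15 of the large subunit had 23.15, 23.8, 23.1 and 21.55 FPKM in relapse mice, against 28.2, 28.03, 28.5, 28.3 and 30.2 FPKM in vehicle mice. Both groups were tight and apart, with a log2 change of -0.31 (SE 0.13, limma adjusted p = 0.299). Mrpl33 had 444.6, 432.4, 401.8 and 408.7 FPKM in relapse mice, all under the vehicle range of 473.5 to 535.2 FPKM, with a log2 change of -0.26 (SE 0.25, adjusted p = 0.693).

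The highest estimates were 0.20 for Mrpl9, 0.19 for Mrps26, 0.15 for Mrpl4 and 0.12 for Mrpl43. Mrpl9 had 41.2, 36.5, 36.7 and 38.4 FPKM in relapse mice, above the vehicle range of 27.8 to 35.7 FPKM (limma adjusted p = 0.452). It was the only member with every relapse mouse above every vehicle mouse, against 9.72% of all genes. Mrpl15, Mrpl20, Mrpl32, Mrpl33 and Mrps14 were separated downward, against 4.03% of all genes.

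A limma fit of relapse and vehicle libraries alone, which leaves the wide iCT spread out, gave another count. It called 3 members lower, Mrpl15 (adjusted p = 0.0363), Mrps10 (adjusted p = 0.0453) and Mrpl33 (adjusted p = 0.0454), where 5.65% of 10833 genes passed. With array weights limma called Mrpl15, Mrpl32 and Mrps10 lower, where 8.81% of all genes passed. With any 1 library left out, the limma fit over the remaining 11 called 0.

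Of the 77 genes, 6 fell and 0 rose by limma at 10 days against 3 days. Mrpl55, Mrpl51, Mrps6, Mrps27, Mrpl32 and Mrpl9 were lower in relapse than in iCT cells, where 9.72% of all genes changed, 6.62% upward and 3.1% downward. The members' median change was -0.15, against 0.16 for all tested genes, with 49 of 77 under 0. By subunit 4 of 48 large and 2 of 29 small subunit genes fell, and the medians were -0.15 and -0.14. The iCT mice are the same as in the comparison with vehicle, so the 2 comparisons are not independent.

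Mrpl55 had 30.3, 23.15, 24.35 and 27.0 FPKM in relapse mice, against 71.0, 41.3 and 35.4 FPKM in iCT mice, without overlap. The log2 change was -0.83 (SE 0.21, limma adjusted p = 0.0278), and -0.54 (adjusted p = 0.0575) without iCT mouse 1. Its change from vehicle was -0.15 in relapse and 0.67 in iCT cells.

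Mrps6, a small-subunit protein with a bacterial counterpart, had 15.7, 17.0, 15.7 and 11.5 FPKM in relapse mice, against 24.8, 27.4 and 20.02 FPKM in iCT mice. No relapse mouse reached an iCT mouse. The log2 change was -0.65 (SE 0.16, limma adjusted p = 0.0278), and -0.63 (adjusted p = 0.0563) without iCT mouse 1. The gene overlaps Slc5a3 on the same strand, which averaged 0.17 FPKM in relapse, 0.33 FPKM in iCT and 0.21 FPKM in vehicle cells.

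Mrpl51 had 69.2, 68.4, 69.3 and 63.2 FPKM in relapse mice, against 150.1, 111.2 and 76.5 FPKM in iCT mice, a log2 change of -0.68 (SE 0.17, limma adjusted p = 0.0283). The iCT mice were spread over nearly 2-fold, and all of them lay above the relapse mice. Mrps27 changed by -0.54 (adjusted p = 0.0278), Mrpl32 by -0.52 (adjusted p = 0.0483) and Mrpl9 by -0.45 (adjusted p = 0.049). Leaving out 1 library gave changes of -0.9268 to -0.4448 for Mrpl51 and -0.6204 to -0.3897 for Mrps27. For Mrpl32 it gave -0.638 to -0.4243, and for Mrpl9 -0.5332 to -0.2988. For Mrps27 the relapse values of 14.9 to 17.3 FPKM lay within the vehicle range of 14.5 to 17.75 FPKM.

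The largest estimates in the other direction did not pass. They were 0.80 for Mrpl33 (SE 0.29, limma adjusted p = 0.0975), 0.63 for Mrpl52, 0.60 for Mrpl23 and 0.57 for Mrps33. Without iCT mouse 1 the changes were 0.28 for Mrpl33 (adjusted p = 0.157) and 0.13 for Mrpl23 (adjusted p = 0.539). Mrpl52 had 71.8, 96.1, 99.35 and 99.85 FPKM in relapse mice, against 11.45, 135.3 and 122 FPKM in iCT mice, and Mrps33 had 85.35, 78.8, 91.5 and 78.9 FPKM in relapse mice, against 19.8, 97.7 and 89.4 FPKM in iCT mice. In both genes iCT mouse 1 alone was low, on 1 and 5.20 implied fragments, and without it their changes were -0.49 and -0.16.

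Relapse and iCT mice did not overlap in 13 members that were lower and 1 that was higher in relapse (Mrpl33), against 6.33% and 16.9% of all genes. The limma calls depended on the libraries included. Without iCT mouse 1 the test called Mrpl20 alone (7.44% of all genes), without iCT mouse 2 it called 10 members, 6 higher and 4 lower (14.4%), and without iCT mouse 3 it called 20, all lower (17.0%). It called 1 member without relapse mouse 1 (5.41%) or 2 (4.83%) and 0 without relapse mouse 3 (5.32%) or 4 (4.89%). Each of the 6 genes missed the threshold without iCT mouse 1 and without at least 3 of the 4 relapse mice in turn (adjusted p of 0.0518 to 0.128). In a limma fit of these 2 groups alone 0 members passed, where 2.35% of all genes did, and over all 12 libraries 19 members and 3194 of 11019 genes were under an unadjusted p of 0.05.

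**Figure D5:**
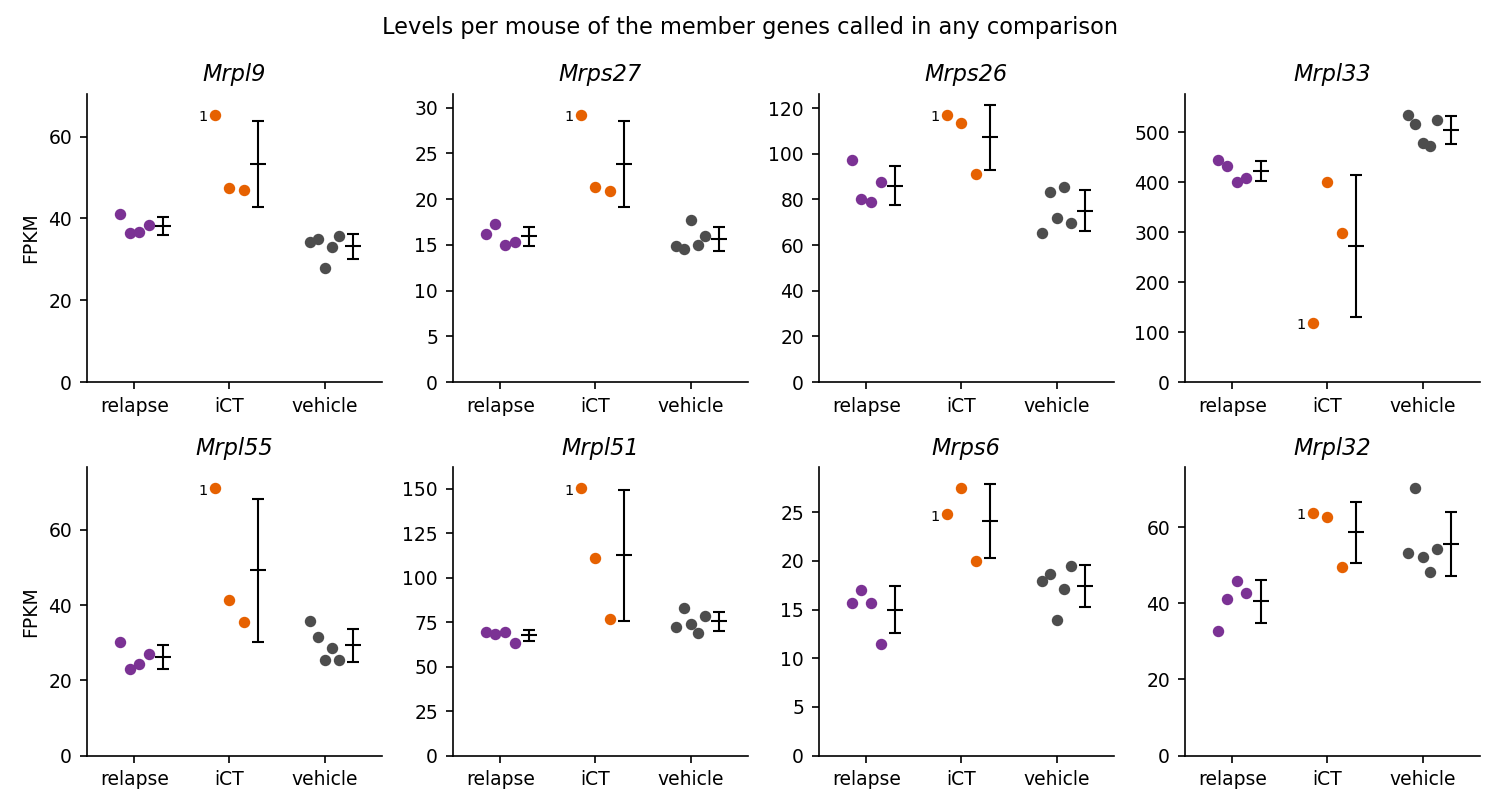
FPKM (y axis, from 0) of the 8 member genes called in any comparison, in relapse, iCT and vehicle mice (x axis); points are mice, bars are mean and SD, and 1 marks iCT mouse 1. Every iCT mouse lies above every vehicle mouse for Mrpl9, Mrps27, Mrps26 and Mrps6 and below for Mrpl33, while the relapse mice of Mrpl32 lie below both other groups.

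Other genes of the same machinery were taken from lists. Of 7 mitochondrial ribosomal proteins with other names, limma called Gadd45gip1 higher (log2 change 0.48, adjusted p = 0.0281) and Chchd1 lower (-0.96, adjusted p = 0.034) in iCT than in vehicle cells. Gadd45gip1 (-0.45) and Ptcd3 (-0.59) were lower in relapse than in iCT cells. Of 14 mitochondrial translation factors 1 passed in iCT against vehicle, the elongation factor Gfm1 (0.52, adjusted p = 0.0333), and of 20 mitochondrial tRNA synthetases also 1, Iars2 (0.59, adjusted p = 0.0423). Of 24 ribosome assembly genes 0 passed in any comparison, with 3, 3 and 2 under an unadjusted p of 0.05 in iCT against vehicle, relapse against vehicle and relapse against iCT. Their medians were -0.09, 0.06 and 0.15. Over all tested genes limma called 9.62% in iCT against vehicle and 9.72% in relapse against iCT. In fits of the 2 groups alone 0 genes of these lists passed in either comparison, where 3.27% and 2.35% of all genes did. Changes of these genes without iCT mouse 1 were not examined.

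The genes that replicate, transcribe and process mitochondrial DNA had 1 of 18 called in iCT against vehicle, the nuclease Mgme1 (-0.74, limma adjusted p = 0.0297). Among 15 genes of import and mitochondrial mass, Hspa9, the matrix chaperone (0.51, adjusted p = 0.0108), and Tomm40, the outer membrane import pore (0.65, adjusted p = 0.0176), were higher in iCT than in vehicle cells. Hspa9 (-0.51) and Timm23 (-0.51) were lower in relapse than in iCT cells. In fits of the 2 groups alone 0 of 18 and 1 of 15 passed in iCT against vehicle, and 0 of either list in relapse against iCT. These genes too were not examined without iCT mouse 1.

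The cytosolic ribosome and the respiratory chain leaned the same way at relapse. Of 81 cytosolic ribosomal protein genes 72 had estimates under 0 in relapse against vehicle, with a median of -0.13, and of 76 nuclear respiratory chain genes 58 did, with a median of -0.11. In iCT against vehicle their medians were -0.10 and -0.07, and limma called 1 of 81 and 3 of 76 genes, against 9.62% of all tested genes. No difference between these sets and the mitochondrial ribosome was tested.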

How the data were processed

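The deposited FPKM values, with 95% intervals, came from Cufflinks gene tables, per the file headers. The submitters' processing notes name STAR, Cufflinks and mm9. The loci of 99.4% of 23070 symbols overlapped the like-named gene in GRCm38, so coordinates are given as GRCm38. FPKM is relative to each library's total and divides shared reads by rules the sources used here do not give.

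Genes with at least 1 FPKM in at least 3 libraries (11019) were fitted as log2(FPKM + 1) in limma 3.58.1 (R 4.3.3), with 1 mean per group over 12 libraries and a trended prior variance. That scale understates changes of low genes. The procedure was tried on simulated data with 1 SD per gene across all 12 libraries. That setting leaves out the lower depth of iCT mouse 1. Implied fragments are the square of 2 times FPKM over the interval's half-width and cover counting error only. Only 35% to 40.5% of low values were whole within 0.02, so no count test was run. Transcript lengths, used also to remove length and GC trends, were from GENCODE M21 and need not be those used for FPKM.

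Members and lists were chosen with earlier results of these data known. Named genes were members passing any comparison, the 4 largest estimates each way, the 3 highest and lowest levels, 13 structural or disease genes, members with 1 distant library, and the 3 most and least like the median member. Other lists give at most 3 genes. 1 marker gene is not reported here. Mice were separate animals by title; p-values measure the spread between them. The labels do not say that same-numbered mice are pairs, so numbers were not used as pairs.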

Additional observations from a re-analysis of the deposited data

Results flagged for a closer look

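A member was singled out where 1 mouse of its group lay far from the others by Dixon's ratio, in the groups of 4 and 5 mice. Of 154 such checks 7 stood out, and chance gives about 1 in 20, or 7.7. The groups of 3 iCT mice were not tested. In the relapse group these were Mrpl4 in mouse 4 at 60.7 FPKM, the others at 50.4 to 51.3 FPKM, Mrpl51 in mouse 4 at 63.2 FPKM, and Mrpl52 in mouse 1 at 71.8 FPKM. In the vehicle group these were Mrpl15 in mouse 5 at 30.2 FPKM, Mrpl23 in mouse 2 at 236.3 FPKM, Mrpl32 in mouse 2 at 70.15 FPKM, and Mrps11, a small-subunit protein, in mouse 3 at 22.6 FPKM. Vehicle mouse 3 was the shallowest vehicle library, and the part of depth in its value was not tested.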

How the results depend on the processing

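In iCT against vehicle, the 4 calls became 8 with median-of-ratios scaling (10.1% of all genes called), 2 with array weights (4.15%), 7 with length and GC trends removed (11.5%), 1 in a fit of the 2 groups alone (3.27%) and 0 in that fit without iCT mouse 1 (3.36%), a setting chosen after seeing the data. Leaving out 1 library gave 2 to 17. In relapse against vehicle, the 0 calls became 3 with array weights (8.81%) and 3 in the fit of the 2 groups alone (5.65%). In relapse against iCT, the 6 calls became 2 without a filter on low values (4.89%), 13 with median-of-ratios scaling (9.14%), 0 with array weights (5.47%), 0 in the fit of the 2 groups alone (2.35%) and 0 in that fit without iCT mouse 1 (5.01%). Leaving out 1 library gave 0 to 20. The causes were not tested.

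Same-numbered mice correlated at -0.0911 to 0.099 over 10 pairs, after removal of group means. In groups of 3 to 5 mice this cannot exclude pairing, which the labels do not state. The replicate block on mouse number gave 1 call in iCT against vehicle (1.79% of all genes), 0 in relapse against vehicle and 1 in relapse against iCT (3.38%). Mice matched their own number best in 3 of 20 checks.

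The median change of the members stood at 0.1531 in iCT against vehicle with median-of-ratios scaling and no iCT mouse 1. There the median of all genes was 0.0145, against -0.0847 in the main fit. Leaving out 1 library gave -0.0879 to 0.1323 for the members. In relapse against iCT it was -0.2669 with median-of-ratios scaling, where the median of all genes was 0.06, and -0.314 without iCT mouse 1 too. Leaving out 1 library gave -0.2152 to 0.002. Large minus small subunit medians, by leaving out 1 library, ran over -0.0413 to 0.084 in iCT against vehicle and -0.0771 to 0.0265 in relapse against iCT. In relapse against iCT they were -0.0743 with array weights, -0.0771 in the 2 groups alone without iCT mouse 1 and -0.0757 with median-of-ratios scaling without it.

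Mrps33 and Mrpl52 turned sign in relapse against iCT. Mrps33 stood at -0.005 with array weights, at -0.1614 in the 2 groups alone without iCT mouse 1 and at -0.2861 with median-of-ratios scaling without it, and leaving out 1 library gave -0.1614 to 0.962. Mrpl52 stood at -0.2426, -0.4941 and -0.6189 under the same settings, and leaving out 1 library gave -0.4941 to 1.233. In relapse against vehicle the members' median lay under 0 in all 22 alternatives, but its size varied from -0.1878 to -0.0513. It was nearest 0 with length and GC trends removed, where 30 of 77 members were above 0, against 18 in the main fit. With median-of-ratios scaling 6 were above 0. The median of all genes moved as well: it was 0.0596 in the main fit, 0.0681 with length and GC trends removed and -0.0048 with median-of-ratios scaling.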
